A study of Mus musculus with 3 samples.

Results

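Among mouse mammary cells sorted as epithelium, 88 of 26320 kept cells had the marker profile of vascular endothelium, the cells that line blood and lymph vessels. A cell was kept when 500 genes or more were detected in it and mitochondrial transcripts made up under 10% of its UMIs. A UMI (unique molecular identifier) tags 1 captured transcript molecule. Members had at least 1 UMI of at least 3 of the 6 markers Pecam1, Cdh5, Flt1, Emcn, Egfl7 and Tie1. They also had fewer than 5 UMIs in each of 3 epithelial sums, namely Krt5 + Krt14 + Krt17 (basal), Csn3 + Elf5 + Kit + Aldh1a3 (luminal progenitor) and Prlr + Areg + Pgr + Esr1 + Cited1 (hormone-responsive). Library 1 held 19 members of 6343 kept cells (0.300%, exact 95% Clopper-Pearson interval 0.180 to 0.467%). Library 2 held 34 of 8934 (0.381%, 0.264 to 0.531%), and library 3 held 35 of 11043 (0.317%, 0.221 to 0.441%). The 3 intervals overlapped, and they cover counting error only.

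The fourth mammary glands of 4 mice, FVB/NJ females of 10 weeks, were pooled to give the cells. Per the labels' protocol, glands were digested with collagenase and trypsin and stained for CD49f (encoded by Itga6), EpCAM, CD31 (Pecam1), CD45 (Ptprc) and Ter119, and live epithelial cells were sorted. The 3 libraries were made with droplet-based 10x Genomics 3' v2 chemistry and form 1 group, for which the labels name no genetic change and no treatment. The same text stands for each library, so whether they share 1 pool of mice is not given, and the p-values measure only the spread between libraries, which may be technical.

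The endothelial members were set against 2 references drawn from the same libraries. Rgs5-positive pericytes, the mural cells wrapped around small vessels, were 24 cells (5, 11 and 8 in libraries 1, 2 and 3) with at least 3 Rgs5 UMIs, under 3 endothelial markers and low epithelial sums. Epithelial cells were 19973 cells with at least 5 UMIs in 1 of the epithelial sums, placed in the class of their largest sum. They comprised 8112 basal, 8814 luminal progenitor and 3047 hormone-responsive cells.

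Endothelial cells form a continuous sheet sealed by VE-cadherin (Cdh5) and claudin-5 junctions. Their growth and survival depend on VEGF acting on Kdr and Flt1 and on angiopoietins acting on Tek. In the mammary gland a capillary network surrounds the ducts and fat, and the endothelium differs along the vessel tree: arterial, capillary, venous and lymphatic segments carry different surface proteins, with fatty acid uptake in capillaries and leukocyte capture in venules.

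Levels of 36 other genes known from endothelium in general were compared between classes, and none of these genes chose the cells. The list was picked with earlier results of these data known, and cells chosen by endothelial markers would carry such genes. The values below therefore describe the members and are no independent support for the endothelial label. Every member carried at least 4 of these 36 genes, with a median of 15 and a maximum of 25. Their summed level was 19402, 20012 and 17596 CPM in members of libraries 1, 2 and 3, against 1223, 1244 and 1895 in pericytes and 645, 649 and 504 in hormone-responsive cells. It was 93.9, 109 and 107 in luminal progenitor cells and 113, 109 and 109 in basal cells. Members thus lay above every other class in every library. Levels here and below are TMM-normalised CPM, the UMIs of a gene scaled to a common total of all UMIs of a class in a library. In 3' tag data such a level does not scale with transcript length.

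Cells on both sides of the marker threshold had similar levels of these 36 genes. The 20 members with 3 markers had 16807 pooled CPM without TMM scaling and the 9 members with 6 markers had 17176. The 10 cells with low epithelial sums and only 2 markers, just outside the rule, had 16649 CPM and at least 8 of the 36 genes each. The 108 cells with 1 marker had 279.8 CPM and the 6101 with no marker had 172.5 CPM. On the epithelial side, 43 members had 0 UMIs in their largest epithelial sum, 36 had 1, 6 had 2, 1 had 3 and 2 had 4. Another 9 cells had at least 3 markers but an epithelial sum of 5 or more, 4 of them between 5 and 9, and all members had 17203 CPM of the pan-endothelial genes, against 8405 in those 9 cells.

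**Figure D1:**
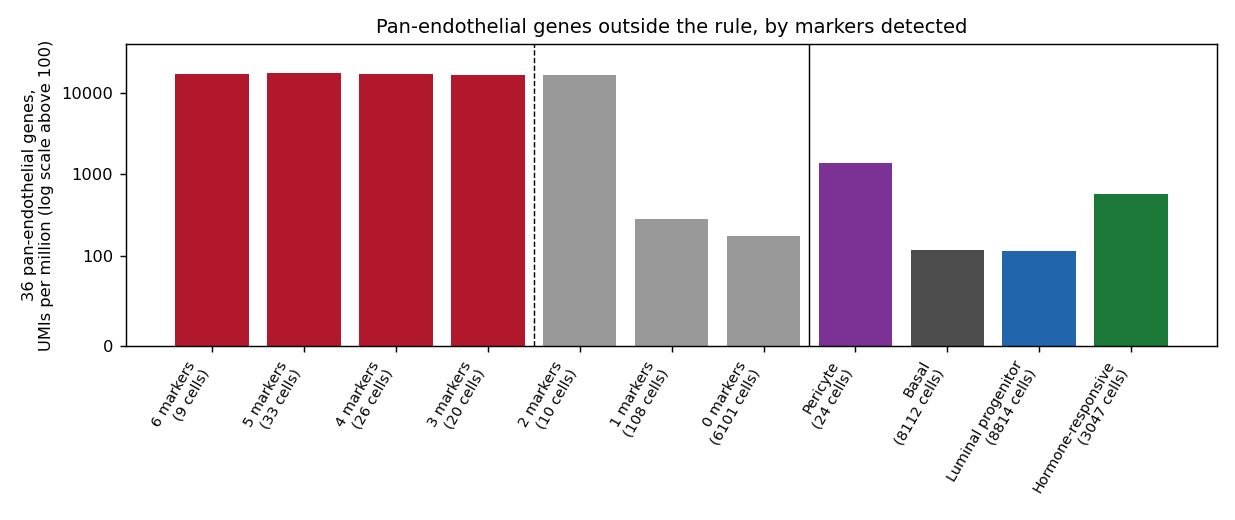
Pooled level of the 36 pan-endothelial genes that did not choose the cells (y axis, CPM, logarithmic above 100) by the number of the 6 endothelial markers detected in cells with low epithelial sums (6 on the left to 0), then in pericytes and the 3 epithelial classes. Bars left of the dashed line are members. The cells with 2 markers reach 16649, close to the members, whereas those with 1 marker stand at 279.8 and those with none at 172.5.

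Each marker of the rule was found in a majority of members, from 54.5% for Tie1 to 90.9% for Pecam1. These values are set by the choice of cells. In basal cells, which should lack these markers, shares lay between 0.0493% (Tie1) and 0.826% (Pecam1) at a median of 2155 UMIs per cell, against 1562 in members. Emcn, a mucin-like sialoglycoprotein of capillaries and veins, was detected in 68.2% of members, against 0.0493% of basal cells.

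Members were few and shallow, which limits low genes. Their median was 1969, 1756.5 and 1411 UMIs per cell in libraries 1, 2 and 3, and their sums held 42853, 69222 and 60688 UMIs. Pericyte sums held 9489, 17866 and 10801 UMIs. A gene with no UMI in all members could still be present at up to 17.4 CPM (3 UMIs over the group), and in all pericytes at up to 78.6 CPM. A cell feature seen in 0 of 88 members has an upper limit of 3.41% (3 of 88). Libraries shared 77, 129 and 146 barcodes by pairs, and 0 of these barcodes were members in both libraries. Scrublet marked 10 members as possible doublets (1, 0 and 9 in libraries 1, 2 and 3), and they were kept. Library 1 stood apart in heat shock genes, and these values are given with the immediate-early genes.

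The members lacked most Epcam, had Itga6 levels that overlapped the mean of the 3 epithelial classes and carried Pecam1. Epcam, the epithelial adhesion molecule, had 0, 1 and 3 UMIs in members of libraries 1, 2 and 3, or 23.04 ± 27.3 CPM (SD, n = 3), against 1117 ± 208 CPM in epithelial cells (log2 fold change -5.19, edgeR adjusted p = 1.06e-07). Itga6, the α6 integrin recognised as CD49f, stood at 431, 334 and 195 CPM in members, against 347, 388 and 344 CPM in epithelial cells. The Itga6 ranges overlapped and the difference did not pass the test (log2 fold change 0.20, edgeR adjusted p = 0.652). Basal cells, the highest epithelial class, averaged 758 CPM of Itga6, against 320 CPM in members. Pecam1, which encodes CD31 and helped to choose the cells, had 60, 91 and 107 UMIs and 1653 ± 228 CPM. Ptprc, which encodes CD45, had 0 UMIs. Cd24a, a surface protein widely used to sort mammary epithelium, was lower, at 166 ± 73.2 CPM in members, against 521 ± 75.1 CPM in epithelial cells (log2 fold change -1.30, edgeR adjusted p = 0.00353). Procr, the protein C receptor, was higher, at 215, 604 and 390.2 CPM, against 4.56, 1.8 and 2.43 CPM in epithelial cells.

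Against epithelial cells, 1276 of 6775 tested genes were higher in members (18.8%) and 246 were lower (3.63%), together 22.5%. A gene was called at an edgeR adjusted p under 0.05 and a log2 fold change of at least 1 in size. The median log2 fold change over all tested genes was 0.32. The 19 genes that chose the cells were not tested, and all other genes were measured in the same chosen cells, so these calls describe the members and are no independent evidence that they differ. A fold change sets members against the average of the log levels of the 3 epithelial classes. Against the plain mean of the classes, 2 of the 1276 higher genes fell on the other side, and 0 of the 246 lower ones. Scaling moved the split of the calls: 83.8% of the calls were higher as reported, 74.7% with library totals alone and 65.1% with TMM factors from all genes of at least 20 CPM, where 952 were higher and 510 lower and the median log2 fold change was -0.07.

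Selp and Fabp4 were among the 15 genes furthest above epithelium. Selp, P-selectin, which tethers rolling leukocytes, reached 2664, 4180.5 and 3317 CPM in members, against 0.19, 0.528 and 0.438 CPM in epithelial cells. The member with most Selp held 46 of its 549 UMIs and also 24 UMIs of the pericyte marker Rgs5. Any Selp was seen in 49 members. Selp was found in 55.7% of members, against 0.136% of basal cells. With cells thinned to 1000 UMIs, which left out 1, 3 and 6 members and 35, 29 and 94 basal cells of libraries 1, 2 and 3, the shares were 51.3% of members and 0.0377% of basal cells. Fabp4, a fatty acid-binding protein of capillaries and fat cells, reached 14181, 13146 and 9046 CPM in members, against 2.22, 4.02 and 5.32 CPM in epithelial cells. It was found in 78 of the 88 members. In every library both genes lay far above the epithelial cells, and the epithelial values rest on 30 Selp UMIs and 279 Fabp4 UMIs in 19973 cells.

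The same 15 genes held surface proteins of vessels. Cd36, a fatty acid translocase, stood at 2718, 1399 and 1117 CPM in members, against 0.161, 0.428 and 0.572 CPM in epithelial cells, and was highest in library 1. Gpihbp1, which holds lipoprotein lipase on the capillary wall, stood at 1130.2, 540.4 and 284 CPM in members, against 0.0569, 0.0687 and 0.109 CPM in epithelial cells, and was found in 25 members. Ackr1, a decoy chemokine receptor of venules, stood at 699.6, 1621 and 1277 CPM in members, against 0.19, 0.391 and 0.262 CPM in epithelial cells. Aplnr, the apelin receptor, stood at 188, 572 and 284 CPM, against 0.0285, 0.145 and 0.153 CPM in epithelial cells. Cd300lg, a mucin-like receptor of endothelium, stood at 834, 429 and 656 CPM, against 0.133, 0.101 and 0.195 CPM in epithelial cells. For each of these genes every library's members lay far above its epithelial cells.

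The 15 genes also included Myct1 (27 UMIs in members, against 1 in all epithelial cells), the myosin chaperone Unc45b (34 against 1), Cyyr1 (40 against 5), Slfn5 (47 against 8), the secreted protein Cytl1 (54 against 5) and the transcription factor Mecom (39 against 8). Gm525 had 15 UMIs in members, against 0 in all epithelial cells, and its level was at least 1845-fold higher in members. The last was Serpina1b, an antitrypsin, with 24, 3 and 25 UMIs in members, against 5 in all epithelial cells. Of its 52 UMIs, 86.5% were in 3 members. Serpina1b has near-identical neighbours whose reads the counting may split, as have Ly6c1, Acot1, H2-K1, H2-D1, Hspa1a and Hspa1b, so the levels of those genes are uncertain.

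**Figure D2:**
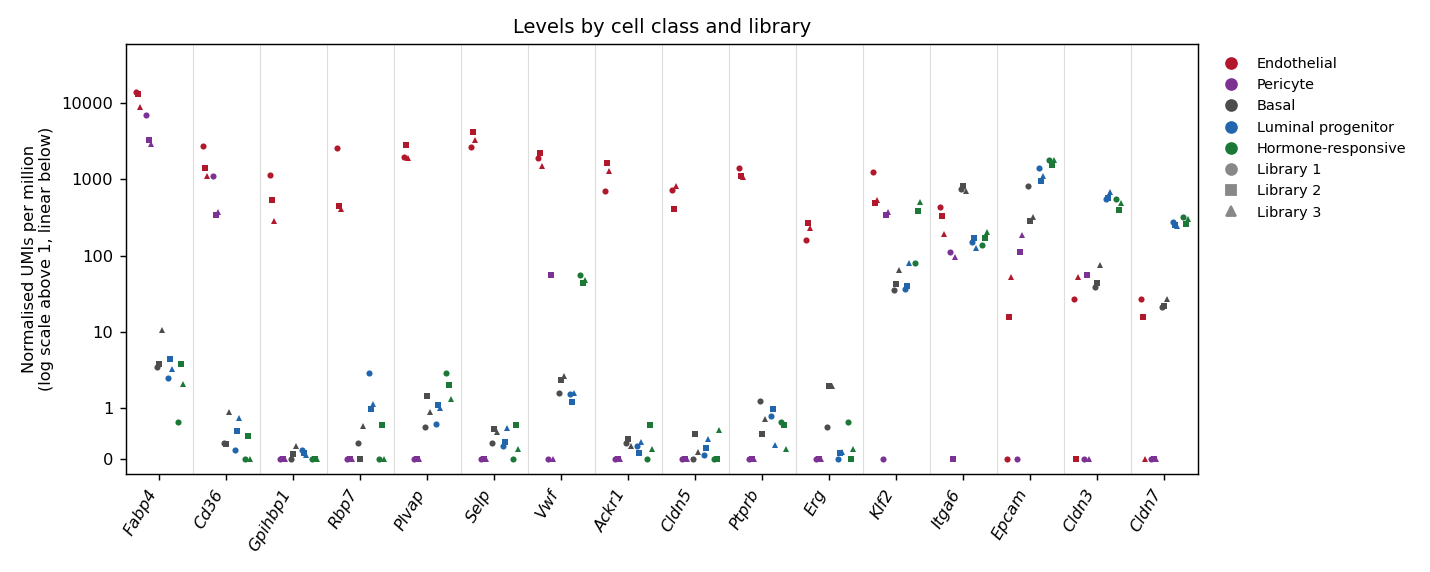
Level of 16 genes (x axis) in each library (circle, square and triangle for libraries 1, 2 and 3) and class (colours), in TMM-normalised CPM on an axis that is logarithmic above 1 and linear below. Endothelial members stand left in each column. Fabp4 to Erg lie far above the epithelial classes, Itga6 lies among them, and Epcam, Cldn3 and Cldn7 lie below the luminal classes.

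Of the 36 pan-endothelial genes, 35 were tested and 35 were higher in members than in epithelial cells. Their median log2 fold change was 9.43, where 18.8% of all tested genes were higher, at a median of 0.32. The gene left out was Lyl1, with 1 UMI in members. The list was picked with earlier results of these data known, and cells chosen by 6 endothelial markers would carry such genes, so the count is no independent support for the label. Plvap, which forms the diaphragms of capillary fenestrae, stood at 1964, 2845 and 1898 CPM in members, against 1.4, 1.52 and 1.08 CPM in epithelial cells. Ptprb, the endothelial phosphatase that restrains Tek, stood at 1399, 1097 and 1082 CPM, against 0.943, 0.713 and 0.414 CPM in epithelial cells. Vwf, the carrier of clotting factor VIII, stood at 1911, 2194 and 1508 CPM, against 19.8, 15.6 and 17.3 CPM in epithelial cells. Some of these genes had epithelial levels too, and Vwf was found in 14.01% of hormone-responsive cells. Podxl, an anti-adhesive sialomucin, averaged 241 ± 52.5 CPM in members, yet 444 CPM in hormone-responsive cells.

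Among receptors and ligands of vessel growth, 7 of 9 tested genes of VEGF, angiopoietin and apelin signalling were higher in members. In this list 0 were lower, and of all tested genes 18.8% were higher. The receptors carried the list. Kdr, the main signalling receptor for VEGF-A, stood at 269, 731 and 372 CPM in members, against 0.133, 0.137 and 0.41 CPM in epithelial cells, and its level in library 2 was above the other two. Nrp1, the VEGF co-receptor, stood at 619, 684 and 603 CPM, against 0.933, 0.74 and 1.16 CPM in epithelial cells. Tek, the angiopoietin receptor Tie2, stood at 188, 349.7 and 195 CPM, against 0.133, 0.218 and 0.345 CPM in epithelial cells. Of the ligands, Vegfa had 1, 0 and 1 UMIs in members and 14.9 ± 13.7 CPM, against 55.3 ± 24.3 CPM in epithelial cells (log2 fold change -1.61, edgeR adjusted p = 0.437), which did not pass the test. Angpt2, the angiopoietin stored in endothelium, was higher at 62.2 ± 14.99 CPM in members, against 0.771 ± 0.546 CPM in epithelial cells, while Angpt1 had 0 UMIs in members. Esm1, a tip-cell gene, passed the test on 0, 7 and 2 UMIs and lost its call in 5 of the alternatives run, with log2 fold changes of 0.63 to 2.43 there. It averaged 48.9 ± 56.8 CPM in members, against 58.4 CPM in luminal progenitor cells.

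Notch and BMP receptors gave a mixed picture. Of 11 tested Notch genes, 5 were higher in members (Notch1, Notch4, Dll1, Dll4 and Jag2) and 0 lower, where 18.8% of all tested genes were higher. Dll1 was nonetheless above members in basal cells (109 ± 14.4 CPM in members, against 129 CPM in basal cells). Without library 1, 2 of 9 were higher, and Notch1 (log2 fold change 1.05) and Jag2 (2.36) lost their calls. Without library 3 Notch1 lost its call too (0.97). Dll4, the ligand of arterial and tip cells, stood at 135, 191 and 124 CPM in members, against 0.731, 0.934 and 1.38 CPM in epithelial cells. Notch1 was close, at 171 ± 53.01 CPM in members, against 92.6 ± 6.23 CPM in epithelial cells (log2 fold change 1.14, edgeR adjusted p = 0.0144), and 179 CPM in the highest epithelial class. Hes1, a Notch target, stood at 188, 795 and 514 CPM, against 539.8, 406 and 402 CPM in epithelial cells, and did not pass the test (log2 fold change 0.45, edgeR adjusted p = 0.407). Of 13 tested TGF-beta and BMP genes, 9 were higher, against 18.8% of all tested genes. Eng, the endothelial co-receptor endoglin, stood at 1103, 1017 and 763 CPM in members, against 24.9, 10.9 and 18.6 CPM in epithelial cells, and its partner Acvrl1 at 207 ± 28.8 CPM, against 14.1 ± 2.82 CPM. The BMP target Id1 stood at 431, 842 and 408 CPM, against 7.15, 10.5 and 25.8 CPM in epithelial cells, while Id2 did not pass the test (edgeR adjusted p = 0.334).

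Transcription factors known from endothelium were higher as a group, in 20 of 21 tested genes, against 18.8% of all tested genes. Their median log2 fold change was 5.26, against 0.32 over all tested genes. The exception was Ets2 (224 ± 113 CPM in members, against 199 ± 58.5 CPM in epithelial cells, edgeR adjusted p = 0.769). The ETS factor Erg stood at 161, 270.2 and 231 CPM in members, against 0.449, 0.684 and 0.762 CPM in epithelial cells. Its relative Fli1 stood at 269, 366 and 248 CPM, against 5.23, 0.498 and 1.17 CPM in epithelial cells. Sox17, Sox18 and Sox7, which guide vessel formation, averaged 188 ± 93.5, 165 ± 184 and 189.98 ± 48.2 CPM in members, against 0.072 ± 0.0776, 0.365 ± 0.279 and 0.592 ± 0.486 CPM in epithelial cells. Sox18 was carried by library 1, with 14 UMIs of its 21. Klf2, induced by blood flow, stood at 1238, 493 and 532 CPM in members, against 50.8, 156 and 215 CPM in epithelial cells, again with the highest member value in library 1. Epas1, the hypoxia factor HIF-2α, stood at 1184, 779 and 922 CPM, against 48.8, 38.6 and 45.2 CPM in epithelial cells.

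Because the ETS factors Erg, Fli1, Ets1 and Elk3 were all detected, promoters were searched for 2 extended ETS cores, CAGGAA and CCGGAA, on both strands (TTCCTG and TTCCGG on the reverse). The cores share the letters GGAA and cannot lie at 1 position. RefSeq windows (GRCm38.p6) were cut to the 250 bases before the annotated gene start. CAGGAA was found in 10 of the 18 pan-endothelial genes with a promoter in the table (55.6%). It was found in 268 of 965 genes called higher in members than in epithelial cells (27.8%) and in 45 of 176 called lower (25.6%). Of 5239 tested genes 1130 had it (21.6%), and of all 27025 promoters 6866 (25.4%). CCGGAA was found in 3 of the 18 (16.7%), in 135 of the 965 (14%) and in 29 of the 176 (16.5%). It was found in 1216 of the 5239 tested genes (23.2%) and in 12.2% of all promoters. Genes called higher and lower thus had similar shares of each core. A match is only a match of letters. The promoters of 3 pan-endothelial genes with at least 2 matches each are printed below, beside that of Selp, which had none, with CAGGAA or TTCCTG in capitals. Tek encodes the angiopoietin receptor, Ctla2a a cathepsin inhibitor of endothelium and Grrp1 a glycine- and arginine-rich protein. The windows are chr4:94739039-94739288, plus strand (Tek), chr13:60936626-60936875, minus strand (Ctla2a), chr4:134254107-134254356, minus strand (Grrp1) and chr1:164115014-164115263, plus strand (Selp).
Tek: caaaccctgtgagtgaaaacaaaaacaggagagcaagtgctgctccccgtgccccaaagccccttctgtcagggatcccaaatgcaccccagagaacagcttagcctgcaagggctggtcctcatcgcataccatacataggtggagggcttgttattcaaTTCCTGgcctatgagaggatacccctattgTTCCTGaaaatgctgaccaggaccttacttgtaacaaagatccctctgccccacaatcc
Ctla2a: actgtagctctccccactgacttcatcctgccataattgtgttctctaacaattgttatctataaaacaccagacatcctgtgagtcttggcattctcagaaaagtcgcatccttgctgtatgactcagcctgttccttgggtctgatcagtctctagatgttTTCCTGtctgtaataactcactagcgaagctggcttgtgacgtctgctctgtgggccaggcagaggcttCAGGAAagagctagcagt
Grrp1: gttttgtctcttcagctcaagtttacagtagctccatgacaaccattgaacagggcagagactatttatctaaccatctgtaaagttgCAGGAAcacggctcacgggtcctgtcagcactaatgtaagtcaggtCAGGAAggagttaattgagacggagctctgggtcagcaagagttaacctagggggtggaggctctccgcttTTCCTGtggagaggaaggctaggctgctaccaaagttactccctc
Selp: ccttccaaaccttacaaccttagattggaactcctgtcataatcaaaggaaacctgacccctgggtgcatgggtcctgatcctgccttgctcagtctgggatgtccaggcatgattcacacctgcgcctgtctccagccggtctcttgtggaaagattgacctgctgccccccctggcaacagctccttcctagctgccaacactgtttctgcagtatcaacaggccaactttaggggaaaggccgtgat

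The 4 genes behind these promoters were all called higher in members than in epithelial cells. Ctla2a stood at 484, 779 and 780.5 CPM in members, against 0.218, 0.255 and 0.631 CPM in epithelial cells. Grrp1 stood at 188, 429 and 248 CPM, against 0.999, 2.49 and 1.05 CPM in epithelial cells. Both were low in epithelial cells of every library. For Selp, whose window held neither core, and Tek the values stand above.

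Genes of caveolae and lipid handling were higher in 16 of 17 tested cases (median log2 fold change 4.64), against 18.8% of all tested genes (median 0.32). Caveolae are flask-shaped pits of the endothelial surface. Cav1, their coat protein, stood at 1507, 1955 and 1099.7 CPM in members, against 107, 102 and 114 CPM in epithelial cells. Ptrf (cavin-1) stood at 1184, 1129 and 958 CPM, against 107, 91.4 and 106 CPM in epithelial cells. Scarb1, the HDL receptor, stood at 349.8, 1001 and 639 CPM, against 19.9, 34.3 and 36.4 CPM in epithelial cells. Meox2, a transcription factor of heart and muscle capillaries that works with Tcf15 in mouse fatty acid uptake, averaged 101 ± 45.3 CPM in members, against 0.0412 ± 0.0438 CPM in epithelial cells. Lpl, the lipase that Gpihbp1 binds, was higher at 484, 95.4 and 35.5 CPM in members, against 3.47, 22.1 and 11.8 CPM in epithelial cells, with 18 of 26 UMIs in library 1.

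Junctions separated the classes both ways. Over all tested genes, 3.63% were lower in members. Of 17 tested genes of epithelial junctions and simple keratins, 15 were lower in members and 0 higher (median log2 fold change -3.29). Their summed level was 431, 477 and 816 CPM in members, against 2673, 2092 and 2606 CPM in basal cells, 5723, 6785 and 8887 CPM in luminal progenitor cells and 14931, 12671 and 14965 CPM in hormone-responsive cells. Cldn3, a claudin of luminal cells, had 4 UMIs in members and 26.7 ± 26.6 CPM, against 381 ± 41.4 CPM in epithelial cells. Cdh1, E-cadherin, had 3 UMIs and 17.1 ± 17.8 CPM, against 229 ± 29.9 CPM in epithelial cells. Krt18 had the highest member level of the list, at 53.8, 47.7 and 302 CPM in members, against 1466, 1551 and 2121 CPM in epithelial cells, and was found in 20.5% of members, against 6 of 24 pericytes and 34.6% of basal cells. Pooled over libraries, the Krt18 share of members was no higher than in 2 classes that are not luminal. It was uneven, with Krt18 in 2 of 19, 3 of 34 and 13 of 35 members of libraries 1, 2 and 3. The part of free RNA in these traces was not tested. On the endothelial side, 8 of 11 tested junction genes were higher, against 18.8% of all tested genes. Cldn5, the claudin that seals endothelium, stood at 727, 413 and 816 CPM in members, against 0.0285, 0.234 and 0.367 CPM in epithelial cells. F11r and Cgnl1 were among those that did not pass the test. Gja1, connexin 43, was called higher at 173 ± 36.3 CPM in members, yet it stood at 404 CPM in basal cells. Ctnnb1, β-catenin, was called at a log2 fold change of 1.02 and lost its call without library 1 or library 3.

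The 8 genes furthest below epithelium by fitted log2 fold change all had 0 UMIs in members. The fit places genes at 0 first, so this order is not that of the drops the counts bear out. Epcam, whose values stand above, had a larger measured drop than any bound given here. Cxadr, an adhesion molecule of tight junctions, averaged 173 ± 7.74 CPM in epithelial cells and was at least 10.6-fold lower in members on pooled counts, where 0 UMIs over the group allow up to 17.4 CPM. F3, tissue factor, the starter of clotting outside vessels, averaged 184 ± 61.5 CPM in epithelial cells (at least 10.4-fold lower in members). The acyl-CoA thioesterase Acot1 averaged 170.5 ± 26.8 CPM in epithelial cells (at least 9.8-fold lower in members). Smim22, Celsr2, Tuba4a, Slc9a3r1 and Pkp3 followed, each at least 4.99 to 8.69-fold lower in members. Celsr2 is a cadherin of planar polarity, Slc9a3r1 a scaffold of the apical membrane and Pkp3 a desmosome plaque protein.

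Genes of leukocyte capture were higher in 12 of 14 tested cases, against 18.8% of all tested genes, and in 9 of 13 without library 2. Icam1, the ligand of leukocyte integrins, stood at 942, 2019 and 1348 CPM in members, against 259, 218 and 283 CPM in epithelial cells. Vcam1 stood at 592, 906 and 727 CPM, against 78.1, 32.9 and 28.8 CPM in epithelial cells. Sele, E-selectin, which endothelium makes after inflammatory stimulation, stood at 53.8, 302 and 266 CPM, against 0.24, 0 and 0.0222 CPM in epithelial cells. Sele, Icam1 and Selp were each lowest in members of library 1. Cytokine genes varied in this respect. Csf3 had 0, 18 and 14 UMIs and Il6 1, 12 and 8 UMIs in members of libraries 1, 2 and 3, whereas the chemokine Cxcl1 had 23, 42 and 34 UMIs and Cxcl12 had 18, 26 and 26. Csf3 and Il6 were called higher than in epithelial cells, and Csf3 lost its call without library 2 (log2 fold change 3.02).

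Of the genes of vessel tone and clotting control, 12 of 13 tested were higher, against 18.8% of all tested genes. Thbd, thrombomodulin, stood at 457, 429 and 355 CPM in members, against 0.402, 0.238 and 0.867 CPM in epithelial cells. Ramp2, the co-receptor for adrenomedullin, stood at 888, 572 and 621 CPM, against 1.04, 1.44 and 1.09 CPM in epithelial cells, and its receptor partner Calcrl at 270.3 ± 49.8 CPM, against 1.62 ± 0.356 CPM. Nos3, endothelial nitric oxide synthase, had only 4, 5 and 6 UMIs in members, and averaged 97.8 ± 15.9 CPM, against 0.563 ± 0.206 CPM in epithelial cells. Ace, which makes angiotensin II, stood at 484, 238 and 266 CPM, against 12.2, 5.23 and 10.3 CPM in epithelial cells.

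Of 15 tested basement membrane and matrix genes, 11 were higher in members, against 18.8% of all tested genes. Sparc, a collagen-binding matrix protein, stood at 1238, 4180.5 and 1489.95 CPM in members, against 515, 753 and 874 CPM in epithelial cells, and library 2 was well above the others. Basal cells averaged 1963 CPM of Sparc, above the members of libraries 1 and 3. Igfbp7 stood at 2556, 2003 and 1330.3 CPM, against 79.96, 33.5 and 36.7 CPM in epithelial cells. Col4a1, a chain of the type IV collagen of basement membranes, averaged 574 ± 315 CPM in members, against 229.5 ± 69.6 CPM over epithelial cells, but 613 CPM in basal cells, so it was not above the class that also builds this membrane. The laminin chains Lama5, Lamb1 and Lamc1 and the proteoglycan Spock2 were not called.

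Antigen presentation genes were higher in 9 of 14 tested cases, against 18.8% of all tested genes, and 0 were lower. H2-D1, a class I heavy chain, stood at 6404, 4259.9 and 4399 CPM in members, against 1360.2, 1259 and 1665 CPM in epithelial cells (log2 fold change 1.89, edgeR adjusted p = 2e-07). B2m, its light chain, stood at 5489, 3656 and 4257 CPM, against 902, 1035 and 1365 CPM in epithelial cells (log2 fold change 2.12, edgeR adjusted p = 1.94e-06). The ranges of both genes lay apart. Class II genes were low but present: Cd74, the invariant chain, had 10, 6 and 23 UMIs in members and 257 ± 157 CPM, against 17.9 ± 7.89 CPM in epithelial cells. It was found in 7 members, and 3 of them held 87.2% of its 39 UMIs. The Cd74 call was lost with at least 4 markers or with stricter epithelial sums.

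Among hormone receptors, 4 of 6 tested were higher, against 18.8% of all tested genes, and 3 of 6 without library 1 or without library 2. They included Nr3c1, the glucocorticoid receptor (241 ± 24.9 CPM in members, against 61.8 ± 4.76 CPM in epithelial cells), Insr (194 ± 28.1, against 32.99 ± 0.599 CPM) and Igf1r (211 ± 45.1, against 82.7 ± 13.4 CPM). Esr1 and Pgr, 2 genes of the rule, had 0 UMIs in members.

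Against pericytes the question was which of these genes separate the vessel lining from its wrapping cells. Of 6489 tested genes, 99 were higher in members (1.53%) and 118 were lower (1.82%), together 3.34%, with a median log2 fold change of -0.05. Rgs5 and the 6 markers chose the cells on the 2 sides, so these calls too describe chosen cells. Counts were few on the pericyte side. Both directions together gave 217 calls, with 136 without library 2 and 138 without library 3. With TMM factors from all genes of at least 20 CPM the calls were 503, of which 420 were higher and 83 lower, at a median of 0.63.

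Pan-endothelial genes again stood out, with 17 of 35 tested called higher and 0 lower, where 1.53% of all tested genes were higher. Without library 2 the number called higher was 11, and without library 3 it was 12. In all pericytes 25 of the 35 genes had 0 UMIs. With genes at 0 set at their bound, the median log2 difference was 2.02. Selp was at least 40.4-fold higher in members than in pericytes, which had 0 UMIs. Aqp1, the water channel aquaporin-1, stood at 2987, 3751 and 3228 CPM in members, against 0 UMIs in pericytes, and was at least 38.9-fold higher. Plvap was at least 26.4-fold, Ackr1 14.7-fold, Lrg1 14.2-fold, Ptprb 13.4-fold, Ly6c1 13.3-fold and Mmrn2 10.7-fold higher. Lrg1 is a secreted glycoprotein that acts on endothelial TGF-beta signalling, and Mmrn2 an endothelial matrix protein. These bounds take 3 UMIs over all pericytes as the floor.

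The other genes with the largest rise over pericytes were Rbp7, Rnd1, Scarb1 and Ctla2a, each with 0 UMIs in pericytes and at least 10.7, 10.2, 8.25 and 8.17-fold higher in members. Rbp7, a retinol-binding protein of capillary endothelium, stood at 2556, 445 and 408 CPM, with library 1 far above the others. Rnd1, a small GTPase, stood at 834, 827 and 993 CPM. It lost its call when pericytes needed 5 Rgs5 UMIs, and Rbp7 lost its call with no replicate block.

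Of 17 tested genes of caveolae and lipid handling, 5 were higher in members than in pericytes and 0 lower, where 1.53% of all tested genes were higher. The 5 were Ehd4, Fabp4, Fabp5, Gpihbp1 and Scarb1. Fabp4 and Cd36 did not separate vessel lining and pericytes cleanly. Fabp4 stood at 14181, 13146 and 9046 CPM in members, against 7005, 3280.2 and 2937 CPM in pericytes (log2 fold change 1.496, edgeR adjusted p = 0.0179), with every member value above every pericyte value. It was found in 20 of 24 pericytes, against 0.925% of basal cells, and it lost its call in DESeq2. Cd36 stood at 2718, 1399 and 1117 CPM in members, against 1112, 339 and 379 CPM in pericytes (log2 fold change 1.58, edgeR adjusted p = 0.0519), and just missed the threshold. Gpihbp1 had 92 UMIs in members, against 0 in pericytes (edgeR adjusted p = 0.00651). Both Fabp4 and Cd36 were highest in library 1, in members and in pericytes alike.

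Pericyte genes gave the opposite picture. Of 22 tested pericyte and smooth muscle genes, 15 were lower in members and 0 higher, where 1.82% of all tested genes were lower. Without library 2, 8 genes of the list were lower, and without library 3, 10 were. Their summed level was 3068, 2957 and 3352 CPM in members, against 23907, 20925 and 12886 CPM in pericytes. Notch3, the Notch receptor of mural cells, stood at 80.7, 15.9 and 53.2 CPM in members, against 1001, 1866 and 1232 CPM in pericytes, where it was higher by a factor of 35.6 (exact 95% counting interval 16.2 to 92.6) (edgeR adjusted p = 8.18e-07). Pdgfrb, the receptor for the PDGF-B that endothelium secretes, stood at 108, 47.7 and 53.2 CPM in members, against 1334, 1018 and 1042 CPM in pericytes, a factor of 18.6 (9.14 to 41.6). Neither gene overlapped between the cell types. Pdgfrb was nonetheless above epithelium in members (edgeR adjusted p = 2.22e-05), on 10 UMIs in 4 members, with 90% of them in 3 members. Of the 88 members, 22 carried 3 or more of the 23 pericyte and smooth muscle genes. The same held for all 24 pericytes and for 94.7% of basal cells. The list holds Acta2, which averaged 5834 CPM in basal cells, against 597 CPM in members. Cspg4, which encodes the pericyte proteoglycan NG2, had 0 UMIs in members and in pericytes. The member with most of the 23 genes carried 16. Leaving out the members with 3 or more Rgs5 UMIs (1, 3 and 1 in libraries 1, 2 and 3) gave 17 lower genes. Those members had 15, 9, 22, 24 and 5 Rgs5 UMIs, at depths of 4831, 2819, 4397, 5944 and 4434 UMIs. The median depth of all members was 1562 UMIs. Scrublet marked only the last of them. Whether these barcodes mix both cell types was not tested.

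The 12 genes furthest below pericytes were led by the potassium channel subunit Kcne4, with 1 UMI in members, against 4, 5 and 7 in pericytes, a pericyte to endothelial ratio of 72.4 (11.3 to 3038). Kcne4 lost its call without library 3. Desmin (Des) had 2 UMIs in members, against 8, 8 and 4 in pericytes, a ratio of 45.3 (10.999 to 399.5). Ratios of 42.3 (13.1 to 217) and 33.2 (9.98 to 173) were found for Col6a2 and Col6a1, chains of type VI collagen, and of 40.8 (14.6 to 158) for chemerin, Rarres2. The chloride channel Ano1 (34.7 (10.5 to 181)), Fxyd1 (31.7 (7.28 to 287)), Ifitm1 (30.2 (14.9 to 69.2)), the mesenchymal factor Prrx1 (28.7 (8.44 to 151)), the nitric oxide receptor subunit Gucy1b3 (24.9 (8.46 to 99.4)) and the complement inhibitor Serping1 (21.3 (9.29 to 57.2)) completed them. The intervals are wide because members had between 1 and 9 UMIs of each gene.

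**Figure D3:**
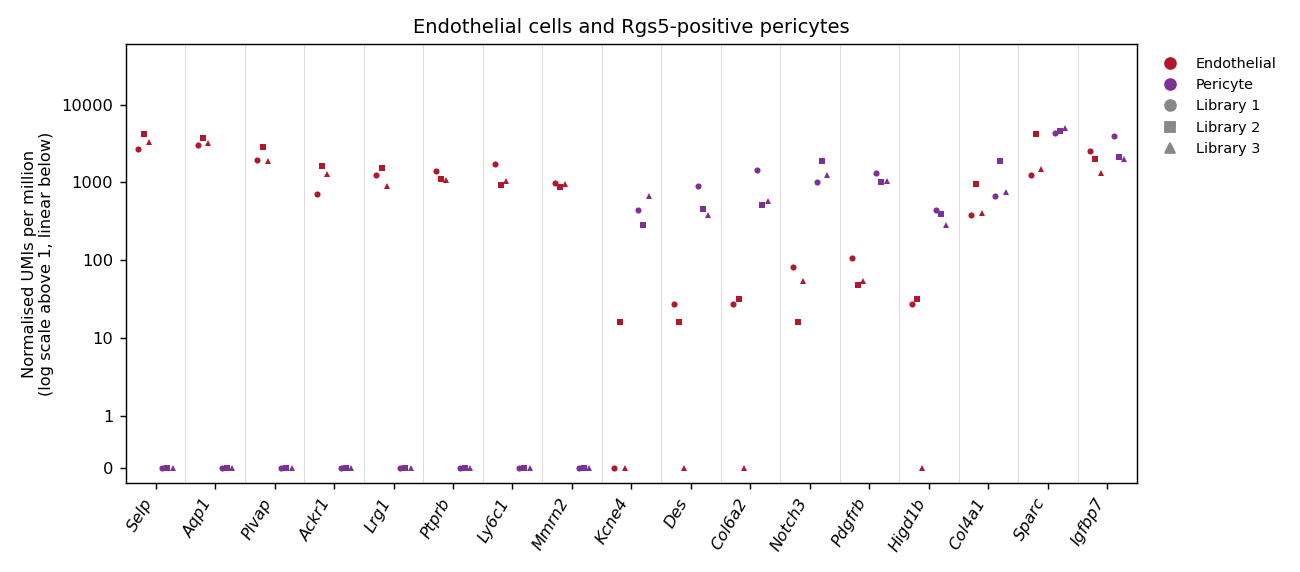
Levels of 17 genes in endothelial members (left in each column) and Rgs5-positive pericytes (right), in TMM-normalised CPM, 1 symbol per library, on an axis that is logarithmic above 1 and linear below. Selp to Mmrn2 are at 0 in pericytes, Kcne4 to Higd1b are higher in pericytes, and Col4a1 and Igfbp7 overlap between the cell types.

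Signals between the layers were detected on both sides, some on very few UMIs. Pdgfb, the growth factor that recruits pericytes, had 6, 7 and 5 UMIs in members and stood at 120.5 ± 37.2 CPM, against 68.6 ± 60.02 CPM in pericytes (edgeR adjusted p = 0.691). In pericytes 1 UMI amounts to 111, 56.6 and 94.8 CPM in libraries 1, 2 and 3, and 0 UMIs allow up to 78.6 CPM. The pericyte value of Pdgfb thus rests on very few UMIs, and this comparison cannot decide whether the cell types differ. Pdgfb passed the test only against epithelial cells (26.4 ± 3.63 CPM, edgeR adjusted p = 0.0015). Gucy1a3, partner of Gucy1b3 in the receptor that nitric oxide activates, stood at 80.7, 63.6 and 0 CPM in members, against 889.6, 792 and 474 CPM in pericytes, and was called lower (edgeR adjusted p = 0.0044). Jag1 and Edn1 were not called against pericytes. Of the 15 tested basement membrane genes, 0 were called against pericytes in edgeR and 0 in DESeq2. Of all 6489 tested genes, 217 (3.34%) were called in edgeR and 278 in DESeq2. A count of 0 in 15 is near that share and sets these genes apart in no way. Sparc stood at 1238, 4180.5 and 1489.95 CPM in members, against 4337, 4524 and 4927 CPM in pericytes (edgeR adjusted p = 0.103), and Igfbp7 at 2556, 2003 and 1330.3 CPM, against 3892, 2093 and 1989.8 CPM (edgeR adjusted p = 0.418). The chemokine Ccl2 was lower in members, at 26.9, 47.7 and 53.2 CPM, against 111, 566 and 1611 CPM in pericytes (edgeR adjusted p = 0.00311). Class I genes were higher in members than in pericytes too, with H2-D1 at 5021 ± 1199.98 CPM, against 1266 ± 639 CPM in pericytes, and B2m at 4467 ± 935 CPM, against 1507 ± 1006 CPM.

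Within the 88 members, genes of different vessel segments fell in different cells. This was seen after the values were known, in the cells that were chosen, and is given as counts with no test. Selp was found in 49 members (6, 22 and 21 in libraries 1, 2 and 3) and not in 39 (13, 12 and 14), at median depths of 1588 and 1505 UMIs. Vwf was found in 47 of the 49 members with Selp, against 9 of the 39 without. Ackr1 was found in 32 with Selp, against 9 without, and Sele in 19 with Selp, against 1 without. Icam1 was found in 43 with Selp, against 17 without, and Lrg1 in 39, against 15. The venous and leukocyte-capturing genes thus shared cells.

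Some capillary genes and the arterial genes looked at lay mostly in the members without Selp. Gpihbp1 was found in 5 of the 49 with Selp, against 20 of the 39 without. Rbp7 was found in 8 with Selp, against 25 without, and it was found in 20 of the 25 members with Gpihbp1. Rgcc, a cell cycle regulator known from capillaries, was found in 4 with Selp, against 16 without. The arterial genes Gja4, connexin 37, and Sema3g, a semaphorin, were found in 0 members with Selp, against 8 and 7 without, and 4 members had both. Sox17 was found in 3 with Selp, against 12 without. Other capillary genes did not keep to this split: Cd36 was found in 33 with Selp, against 22 without, Cd300lg in 21 and 21, and Fabp4 in 47, against 31. The members with Selp held 99, 263 and 187 Selp UMIs in libraries 1, 2 and 3, and library 1, with fewest such members, had the highest Gpihbp1 and Rbp7 levels.

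**Figure D4:**
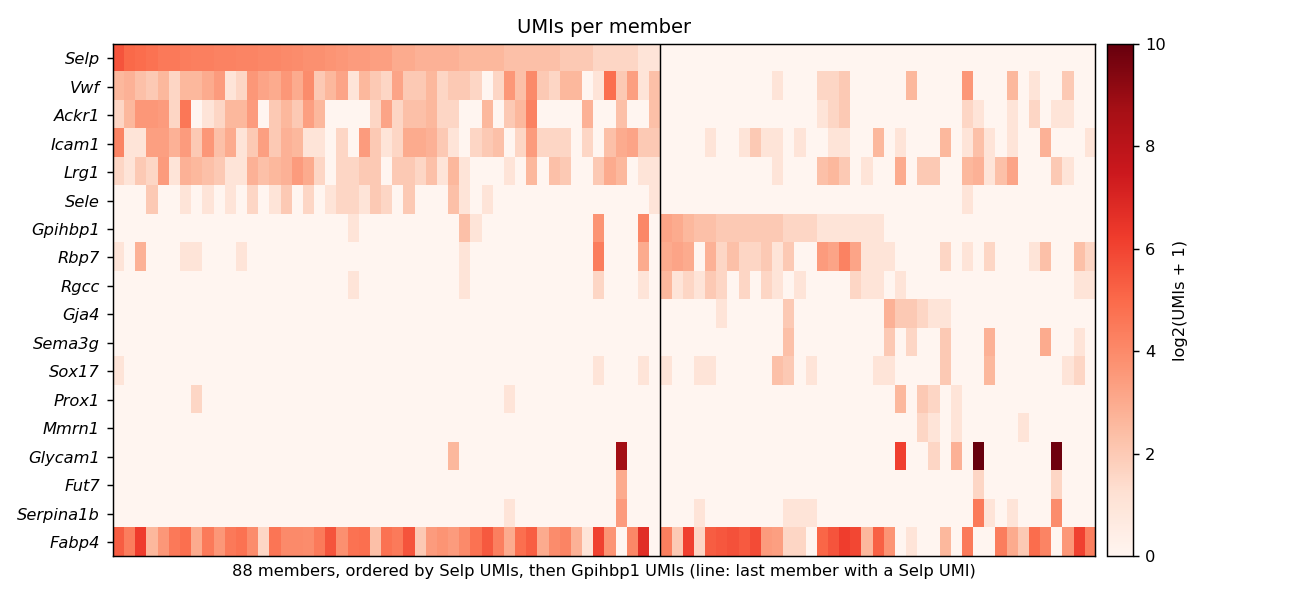
UMIs of 18 genes (y axis) in each of the 88 members (columns), as log2(UMIs + 1) in colour, ordered by Selp and then Gpihbp1 UMIs, with a line after the last of the 49 members with Selp. Vwf, Ackr1 and Sele fill the left, Gpihbp1, Rbp7, Gja4 and Sema3g mostly the right, and 3 columns hold nearly all Glycam1 UMIs.

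Lymphatic markers were rare. Prox1, the master transcription factor of lymphatic endothelium, was found in 6 members of libraries 2 and 3 and in none of library 1. Mmrn1 was found in 3 of these 6 and Flt4, the VEGF-C receptor, in 2, while Lyve1 had 0 UMIs. The venous gene Selp was also found in 2 of the 6, with 19 and 4 UMIs. The one with 19 had 9 Rgs5 UMIs too. Against epithelial cells, 2 of 4 tested lymphatic genes were called higher, Prox1 and Ccl21a, against 18.8% of all tested genes. Without library 3 no lymphatic gene was called (0 of 2 tested). Ccl21a, a chemokine that lymphatics and high endothelial venules secrete, had 45 UMIs, all in library 3.

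Glycam1 was uneven between members. It is a mucin-like ligand of L-selectin made by lymph node high endothelial venules, and also a milk protein. It had 977, 2 and 1419 UMIs in members of libraries 1, 2 and 3, against 49, 2076 and 153 in all luminal progenitor cells, its highest epithelial class, and 0 in pericytes. In edgeR it was higher than in epithelial cells (log2 fold change 11.10, adjusted p = 3.66e-06). Of 2398 UMIs, 96.6% were in 3 members with 977 UMIs (library 1), 904 and 435 UMIs (both library 3), which made up 16.04, 27.3 and 15.03% of those cells' UMIs. The fourth member had 69. The highest Glycam1 in any cell outside the members was 127 UMIs, in a luminal progenitor cell of library 2.

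The 3 members carried 5 of the 6 endothelial markers each and almost no casein: the first had 1 Csn3 UMI and the second 2 Csn1s1 UMIs. The third was among the 10 members that Scrublet marked. Looked up after these values were seen, Fut7, a fucosyltransferase that completes L-selectin ligands in mouse venules, had 2, 2 and 7 UMIs in them and none elsewhere among the members. Chst4, the sulfotransferase of the same ligands, had 2, 2 and 0 UMIs, and Enpp2, autotaxin, 9, 4 and 6. Serpina1b had 21, 14 and 10 UMIs in the same cells, which were most of its 52, and Ccl21a had 0, 16 and 25. Madcam1 had 0 UMIs in these 3 members.

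Markers of most other cell types were at or near 0. Of 7 immune markers, 5 had 0 UMIs and Cd52 and Cd79a had 1 each. Fibroblast markers summed to 296.0, 174.8 and 106.4 CPM in members, against 1668, 3111 and 2748 CPM in pericytes, with Pdgfra at 0 in both. In basal cells they summed to 62.4, 209 and 243 CPM, and Col3a1 was called higher in members than in epithelial cells (101 ± 78.7 CPM in members, against 10.7 CPM in basal cells, the highest epithelial class). Of 4 platelet markers, Pf4 had 4, 0 and 6 UMIs and the other 3 had 0. The 4 erythroid, 4 adipocyte and 3 keratinocyte markers had 0 UMIs. Of 4 Schwann markers, 2 had 0 UMIs in members. Sox10, the only one tested, had 2 UMIs and was lower than in epithelial cells. Caseins were present at a low level: Csn2 was found in 21.6% of members, against 23.6% of basal cells (16.7% and 11.3% after thinning). Csn2, Csn1s1 and Csn1s2a had 0 UMIs in members of library 1, where epithelial cells also had least. Of 8 tested milk genes, 6 were lower in members, against 3.63% of all tested genes, and Glycam1 was the only one higher. Without library 2 the number of milk genes lower was 2.

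Genes of cell division were at the detection limit. Mki67 and Top2a had 0 UMIs, and 0 of 88 members had UMIs of 2 or more of 18 S-phase and mitosis genes. The limit of 3.41% then covers cells with such UMIs, not dividing cells, since cells of this depth can miss these genes. Pcna alone was tested, and was not called (31.4 ± 4.3 CPM in members, against 54.9 ± 11.9 CPM in epithelial cells, edgeR adjusted p = 0.499).

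Heat shock genes set library 1 apart in all classes. The 8 heat shock genes summed to 10091, 2209 and 2483 CPM in members of libraries 1, 2 and 3, against 20904, 2488 and 2369 CPM in pericytes, 16616, 2859 and 2644 CPM in basal cells, 6817, 2064 and 1723 CPM in luminal progenitor cells and 4961, 2849.6 and 2602 CPM in hormone-responsive cells. Library 1 was highest in every class. The 12 immediate-early genes summed to 19536, 36814 and 32069.5 CPM in members, against 37806, 40380.1 and 36954 CPM in pericytes, 20066, 19472 and 23496 CPM in basal cells, 9739.7, 18335 and 25160.3 CPM in luminal progenitor cells and 5529, 20656 and 23720.4 CPM in hormone-responsive cells. Library 1 was lowest in members, luminal progenitor and hormone-responsive cells, and in pericytes and basal cells it was not. Between classes, 4 of the 12 immediate-early genes were higher in members than in epithelial cells (Ier3, Dusp1, Nr4a1 and Zfp36), against 18.8% of all tested genes. Without any 1 of the libraries 4 were called too. Zfp36, which destabilises cytokine mRNAs, stood at 2099, 7455 and 4647 CPM in members, against 689, 1676 and 1864 CPM in epithelial cells. Fos stood at 2664, 6199 and 5357 CPM, against 1828, 3842 and 4639 CPM in epithelial cells, and did not pass the test (edgeR adjusted p = 0.0907). Of the heat shock genes, Hspe1 was lower in members and Hspb1, a small heat shock protein, was higher at 3471, 1129 and 1135 CPM in members, against 1327, 416 and 472 CPM in epithelial cells (edgeR adjusted p = 1.54e-05).

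**Figure D5:**
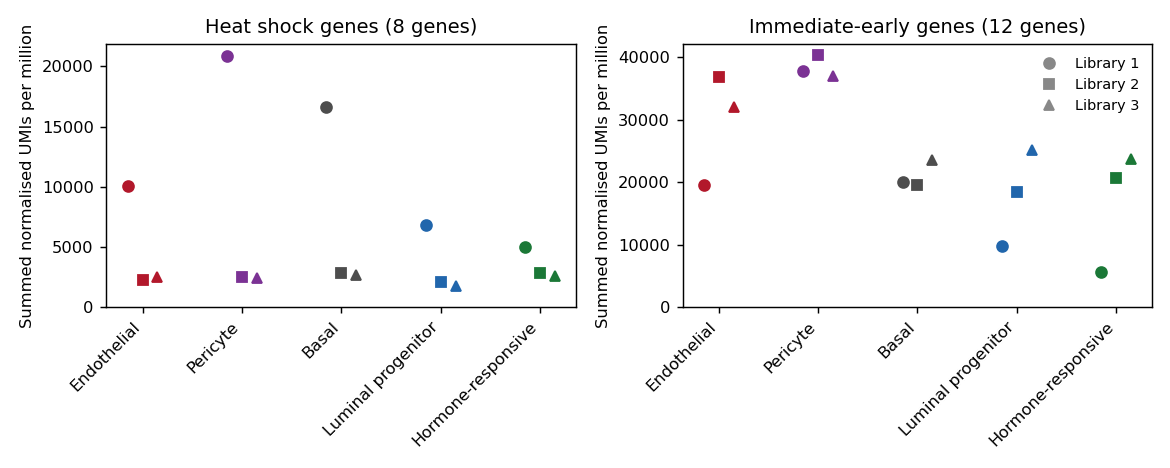
Summed level of 8 heat shock genes (left) and 12 immediate-early genes (right) in each class and library (circle, square and triangle for libraries 1, 2 and 3), in TMM-normalised CPM. Heat shock genes are highest in library 1 in every class, and immediate-early genes are lowest there in members, luminal progenitor and hormone-responsive cells.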

How the data were processed

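UMI counts per gene and cell were used as deposited. The authors made them from single-cell reads with Cell Ranger 2.1.0 and the mouse genome mm10, per the submitters' processing notes, and the deposited matrices hold whole-number counts for 26845 barcodes in 3 libraries. The chosen members, the gene lists and the promoter motifs were all picked with earlier results of these data known. Cells were filtered at 500 genes and under 10% mitochondrial UMIs, which left out 525 barcodes. Doublets were kept and looked for with Scrublet (scanpy 1.11.5).

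UMIs were summed per library and class (15 sums) and tested with edgeR 4.0.16 in R 4.3.3 (quasi-likelihood test, two-sided, Benjamini-Hochberg adjustment), with the library as a block and a filter at a mean of 20 CPM over both sides. TMM factors came from the 677 genes with a mean of at least 200 CPM, a choice made after the data were seen. Sums of the same library share a preparation, and the deviations of endothelial sums correlated with those of the same library's epithelial cells (r = 0.470, 0.311 and 0.335) and pericytes (0.136, 0.0591 and 0.0888). DESeq2 1.42.0, other scalings, filters and member rules and leaving out each library were the alternatives.

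Genes named are the 15 furthest above and 8 furthest below epithelium and the 12 furthest above and below pericytes, among called genes with the same sign in all libraries and at least 3 UMIs per library on the higher side, plus members of 31 lists (340 of 344 genes in the tables). Intervals are exact Clopper-Pearson intervals at 95% (scipy 1.17.1, Python 3.11.15), and those of ratios are exact binomial intervals of one count in the sum of both. Promoters are RefSeq windows of GRCm38.p6 that start at the GENCODE M21 gene start. Some genes of the lists enter the counts but are not reported here by name.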

Additional observations from a re-analysis of the deposited data

How the results depend on the processing

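The number of members stayed within 1.5 times of 88 for 2 or 4 markers (98 and 68), other epithelial limits (79 and 92) and removal of doublets (78) or of members with Rgs5 (83), and was 38 at 1000 genes per cell. Calls against epithelial cells were 1522, with 1056 to 1379 when 1 library was left out. With all epithelial cells in 1 sum, 70.5% of 1416 calls were higher, against 83.8% as reported, and the median of all genes moved to 0.13. In that setting Mylk changed sign, to a log2 fold change of -0.43 (edgeR adjusted p = 0.369), against 1.12 (adjusted p = 0.048) as reported. Calls against pericytes were 217, with 136 to 218 when 1 library was left out, 503 with TMM factors from genes of at least 20 CPM (median of all genes 0.63) and 346 with sums thinned to the endothelial total. DESeq2 called 278 genes against pericytes, of which 32.4% were higher, against 45.6% in edgeR. With no replicate block the calls were 1468 against epithelial cells and 184 against pericytes. Without the block 19 single-gene results lost and 1 gained a call. Over all single-gene results and alternatives, 180 lost and 233 gained a call, and 1 that was called as reported changed sign. The other 8696 were counted as unchanged. A change of sign was counted only for genes called as reported, so these 8696 can hold uncalled genes whose sign changed. The causes were not tested. Depth limits the pericyte side most, where 0 UMIs allow up to 78.6 CPM.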
